A study of Mus musculus with 6 samples.

Results

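The genes described are 10 members of purine signaling at the cell surface, taken as the rows whose gene name was *Cd38*, *Entpd1*, *Nt5e*, *Ada*, *Adora2a*, *Adora2b*, *P2rx4*, *P2rx7*, *P2ry6* or *P2ry14*, out of 23424 genes in each count table. ATP and NAD that leave stressed or dying cells act as danger signals in tissue. ATP opens P2X channels and, like other nucleotides, engages P2Y receptors, until ecto-enzymes degrade it to adenosine. Adenosine acts on receptors of its own, which dampen the inflammatory activity of macrophages in tumors, and is removed by deamination or uptake.

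The libraries are bulk RNA-seq of macrophages sorted from YUMM1.7 tumors. The YUMM1.7 line derives from mouse melanoma and was injected here into the skin of wild-type C57Bl/6J female mice that were 8 weeks old and received no further treatment. On day 21, live CD45+ CD11b+ F4/80+ cells were collected as an F4/80high and an F4/80low fraction, and the study's methods add the removal of lineage-positive cells. There were 3 libraries per subset, one from each of 3 independent experiments on 10 pooled tumors, so a library is a pool of tumors and not 1 animal. Libraries with the same replicate number were taken to come from one experiment and are called pairs 1, 2 and 3.

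The libraries held between 16045281 and 43604373 counts, and replicate 3 of both subsets was the shallowest. Replicates 1 and 2 are marked as one batch and replicate 3 as another in the study's supplementary PCA. In edgeR's quasi-likelihood test, 6245 of 14645 protein-coding genes had an adjusted p under 0.05 for the batch, so the pairs are given singly throughout. The batch log2 fold change rose with gene length (Spearman correlation 0.38 over 14645 genes). Ratios, shares and ranks of genes of unlike length within a library do not remove this. *Adgre1*, which encodes the F4/80 used for the sort, was at 391 ± 136 CPM (reads scaled to the same library size, SD, n = 3) in F4/80high and 251 ± 71.9 in F4/80low, a ratio of 1.12, 1.65 and 1.96 in pairs 1, 2 and 3. The subsets overlapped, with F4/80high replicate 1 at 273 CPM and F4/80low replicate 2 at 327 CPM. The log2 fold change of *Adgre1* was 0.67 (SE 0.30, adjusted p = 0.664 in edgeR). The 8 macrophage markers summed to between 2613 and 6915 CPM in F4/80high and between 1727 and 3558 in F4/80low, and none was at 0. Of them 6 were higher and 2 lower in F4/80high, and the sum was higher in 3 of 3 pairs. Of 7 melanoma markers listed, 4 were among the counted genes and 3 were tested. Those 3 were higher in F4/80high by fold change, with means of 55.6 CPM for *Mitf*, 1.19 for *Pmel* and 0.69 for *Sox10*. *Mlana* had 1 count in F4/80low replicate 1 and 0 in every other library. Of 5 tested endothelial markers, 2 were higher and 3 lower. The 6 monocyte markers were all lower in F4/80high, as were the 6 eosinophil, 8 neutrophil, 6 dendritic cell, 7 mast cell and basophil and 6 fibroblast markers.

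Across the 10 members, the largest difference was that of *Cd38*, the main NAD-degrading enzyme of the cell surface. Its level was higher in F4/80high than in F4/80low in each pair, at 1.74, 3.39 and 2.74 times, and it was the only member whose 3 F4/80high libraries lay above all 3 F4/80low libraries. *P2ry6* and *P2rx7*, receptors for UDP and for ATP, were also higher in F4/80high in 3 of 3 pairs. *Adora2b*, a receptor for adenosine, was lower in 3 of 3 pairs. *Entpd1* and *Nt5e*, the enzymes known as CD39 and CD73, had nearly the same mean in both subsets. In bulk RNA, fewer cells of a type and less RNA per cell cannot be told apart, which holds for each of these differences.

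No member was called by edgeR with batch in the model, where a call needs an adjusted p under 0.05 and a log2 fold change above 1 in size, and none of the 14645 genes tested was, a share of 0%. The lowest adjusted p of any gene was 0.434. An unadjusted p under 0.05 was found for 4 members of 10, against 7.6% of all genes tested. The members were chosen with earlier results of these data known, so these shares are a description and cannot test the set. They were *Cd38*, *P2ry6*, *P2rx7* and *Adora2b*. Of the members, 3 were higher in F4/80high in all 3 pairs, where 16% of all genes were, and 2 were lower in all 3, where 15.9% were. One pair of the 2 lower members, pair 1 of *P2ry14*, had a ratio of 1.00. *Cd38* was the 1 member without overlap in the direction of F4/80high, which held for 2.3% of all genes, and 0 members lay wholly below, which held for 2.9%. The median log2 fold change was 0.17 over the 10 members and 0.01 over all genes tested.

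How many genes were called depended on the model. edgeR with the pair as a replicate block called 0 members and 76 genes, a share of 0.519%. DESeq2 with the batch called 1 member and 148 of the 13225 genes to which it gave an adjusted p, a share of 1.12%. DESeq2 with the replicate block called 1 member and 354 genes, a share of 2.68%. Without F4/80high replicate 1, edgeR with the batch called 1 member and 57 of 14406 genes, a share of 0.396%. In each of these last 3 fits the member called was *Cd38*.

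**Figure D1:**
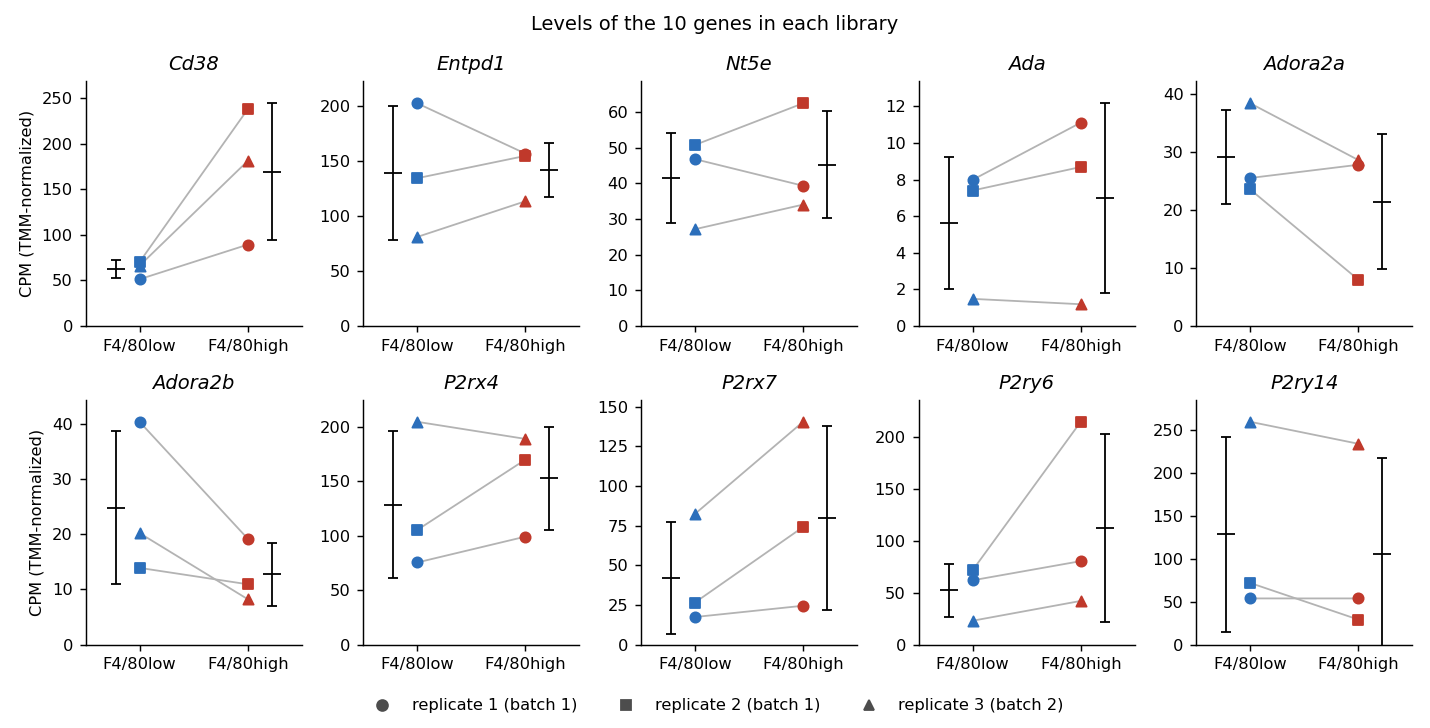
Level of each of the 10 members in CPM (vertical axes, from 0 and scaled per gene) in the F4/80low and F4/80high subsets. Points are libraries, lines join the libraries of one pair, and bars show mean and SD (n = 3), cut at 0 where the SD exceeds the mean. The *Cd38* points of the subsets do not overlap, at 89.2 to 238 CPM in F4/80high and 51.3 to 70.2 CPM in F4/80low.

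*Entpd1* and *Nt5e*, which together take ATP down to adenosine, overlapped between the subsets. *Entpd1* (CD39, ENSMUSG00000048120) turns ATP and ADP into AMP, and lies on the plus strand of chromosome 19 at 40612366-40741602 (GRCm38). It was at 157, 155 and 113 CPM in F4/80high replicates 1, 2 and 3. In F4/80low it was at 202, 134 and 80.9 CPM. The F4/80low libraries spanned the F4/80high ones, with a mean of 139 ± 60.8 CPM against 141 ± 24.4 (SD, n = 3). The log2 fold change was 0.08 (SE 0.25, adjusted p = 0.957 in edgeR), and its sign was negative when F4/80high replicate 3 was left out, or F4/80low replicate 2 or 3.

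*Nt5e* (CD73, ENSMUSG00000032420, chromosome 9, 88327197-88372092, plus strand) takes the next step, from AMP to adenosine. Its level was 39.3, 62.5 and 34.1 CPM in F4/80high against 46.8, 50.8 and 27.2 CPM in F4/80low. The subsets overlapped, with F4/80high lower in pair 1 and higher in pairs 2 and 3. Its log2 difference was 0.15 (SE 0.25, adjusted p = 0.921 in edgeR), and it was -0.07 without F4/80high replicate 2.

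The ratio of both enzymes within a library needs no scaling for library size. Their lengths differ, at 5580 and 8411 bases, so the relation of the batch to gene length can still enter it. Reads per kilobase of *Entpd1* were 6.00, 3.73 and 5.01 times those of *Nt5e* in F4/80high replicates 1, 2 and 3. They were 6.51, 3.98 and 4.49 times those of *Nt5e* in F4/80low. In each library *Entpd1* was therefore the more abundant per length, and the geometric mean of the ratio in F4/80high was 0.987 times that in F4/80low (exact permutation test, two-sided, p = 1). With 3 libraries per subset this test cannot give less than 0.1.

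Surface enzymes that act on nucleotides, *Entpd1* and *Nt5e* included, gave 10 tested genes, of which 7 were higher and 3 lower in F4/80high, with 0 and 1 at an unadjusted p under 0.05 and a median log2 fold change of 0.14. The one was *Acpp*, an acid phosphatase whose membrane form can also produce adenosine from AMP. It was at 31.2, 12.5 and 20.3 CPM in F4/80high against 67.9, 50.5 and 43.7 CPM in F4/80low. All 3 F4/80high libraries lay below all 3 F4/80low libraries, with a log2 fold change of -1.33 (SE 0.35, adjusted p = 0.461 in edgeR). DESeq2 called it with the batch and with the replicate block. *Enpp4*, which cleaves dinucleotide polyphosphates, had a log2 fold change of 0.65 (SE 0.34, adjusted p = 0.696 in edgeR). Of 3 related enzymes that act inside the cell, *Entpd5* had a log2 fold change of 0.48 (SE 0.36) and *Entpd6* one of -0.86 (SE 0.43). The subsets did not overlap for *Entpd6*, though their nearest libraries were both at 19.8 CPM, and its log2 fold change was -0.25 without F4/80high replicate 3.

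*Cd38* (ENSMUSG00000029084, chromosome 5, 43868553-43912375, plus strand) consumes NAD and makes cyclic ADP-ribose and ADP-ribose, which can feed adenosine production without CD39. Its level was 89.2, 238 and 181 CPM in F4/80high replicates 1, 2 and 3. In F4/80low it was 51.3, 70.2 and 66.2 CPM. The lowest F4/80high library was above the highest F4/80low library, and F4/80high varied more, with 169 ± 74.9 CPM against 62.6 ± 9.95 (SD, n = 3). The fitted log2 fold change was 1.44 (SE 0.35, adjusted p = 0.440 in edgeR).

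Whether *Cd38* passed differed between the tools, and the replicate block changed its call in neither. Its adjusted p was 0.0528 in edgeR with the block, 0.0208 in DESeq2 with the batch and 3.76e-05 in DESeq2 with the block. Without F4/80high replicate 1 it was 0.0477 in edgeR at a log2 fold change of 1.75. Without F4/80high replicate 2, its highest library, the log2 fold change was 0.91 (adjusted p = 0.498 in edgeR). It did not differ between batches beyond its spread, with a log2 fold change of 0.14 for batch 2 over batch 1 (adjusted p = 0.792 in edgeR).

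*Bst1* (CD157) is the paralog of *Cd38* and lies 24567 bases from it. Its level was 21.96, 27.9 and 12.2 CPM in F4/80high against 33.7, 20.7 and 24.1 CPM in F4/80low, with overlap and a log2 fold change of -0.40 (SE 0.31). Per length, *Cd38* exceeded *Bst1* by 3.47, 7.28 and 12.6 times in F4/80high replicates 1, 2 and 3. In F4/80low the excess was 1.30, 2.89 and 2.34 times. The neighbors thus had different proportions in each subset, with no overlap and a ratio 3.31 times higher in F4/80high (exact permutation test, two-sided, p = 0.1, the lowest possible, and 0.2 after Benjamini-Hochberg adjustment over 6 ratios). This test exchanges labels over all 6 libraries. Exchanged within pairs, 3 pairs cannot give a two-sided exact p under 0.25, and this ratio had 0.25. The 6 ratios were chosen after values had been seen.

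Among the NAD-consuming ecto-enzymes, 3 of 5 tested genes were higher and 2 lower in F4/80high, with 1 and 0 at an unadjusted p under 0.05 and a median log2 fold change of 0.18. *Art2b*, an ADP-ribosyltransferase of T cells that can sensitize P2X7 to NAD, had low levels, at 3.91, 0.874 and 1.84 CPM in F4/80high against 1.26, 1.35 and 0.114 CPM in F4/80low. The subsets overlapped and the log2 fold change was 1.57 (SE 0.96).

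T, NK, B and plasma cells carry *Cd38* as well. The gate leaves out lineage-positive cells, and although the sources used here do not spell out which, the study's antibodies include B220, CD3e and NK1.1, which mark B, T and NK cells. All 8 markers of T and NK cells were nonetheless detected in each library and were higher in F4/80high by fold change. They summed to 899, 302 and 162 CPM in F4/80high replicates 1, 2 and 3 and to 332, 405 and 72.8 CPM in F4/80low, higher in F4/80high in pairs 1 and 3. The 7 markers of B and plasma cells, 5 higher and 2 lower, summed to between 10.9 and 143 CPM in F4/80high and between 6.62 and 131 CPM in F4/80low. Of these, *Mzb1* was at 0 in replicate 3 of both subsets and *Jchain* in F4/80low replicate 3. The part of these cells in the *Cd38* values was not tested.

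**Figure D2:**
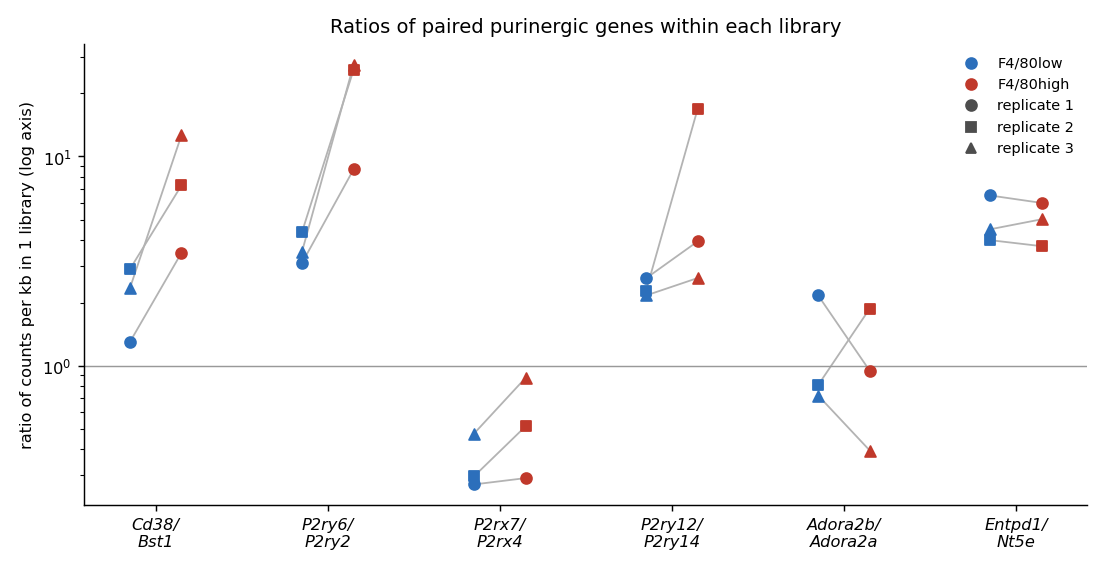
Ratios of per-length read counts of 6 gene pairs, chosen after values had been seen, within each library (vertical log axis), by subset. Points are libraries, lines join pairs, and the ratios of *Cd38* to *Bst1* (3.47 to 12.6 in F4/80high, 1.30 to 2.89 in F4/80low) and of *P2ry6* to *P2ry2* (8.67 to 27.4 and 3.09 to 4.34) do not overlap.

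*Ada* (ENSMUSG00000017697, chromosome 2, 163726584-163750239, minus strand) deaminates adenosine to inosine and so ends its signal. Its mean level per length over the 6 libraries was the lowest of the members, though not in each library. Its CPM was 11.1, 8.68 and 1.19 in F4/80high against 7.98, 7.40 and 1.48 in F4/80low. Replicate 3 was the lowest library of both subsets, with only 11 counts in F4/80high replicate 3, and the subsets overlapped. Its log2 fold change between subsets was 0.18 (SE 0.40, adjusted p = 0.938 in edgeR), while that of batch 2 over batch 1 was -2.70 (adjusted p = 0.00209 in edgeR).

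The genes listed under adenosine removal and transport include some that do not act on adenosine itself, such as *Ampd3* and *Dpp4*. Of 14 tested genes, 6 were higher and 8 lower in F4/80high, with a median log2 fold change of -0.17. An unadjusted p under 0.05 was found for 1 and 1 of them. *Ampd3*, a deaminase that turns AMP into IMP inside the cell, was at 29.1, 20.8 and 104 CPM in F4/80high. In F4/80low it was at 64.8, 44.7 and 235 CPM. It was lower in F4/80high in each pair by a similar factor, although replicate 3 stood far above the others in both subsets. Its log2 fold change was -1.15 (SE 0.25, adjusted p = 0.440 in edgeR), and with the replicate block edgeR called it (adjusted p = 0.0488), the one pathway gene so called. *Dpp4*, the surface peptidase CD26, was lower in 3 of 3 pairs with overlap (log2 fold change -0.91, SE 0.47, adjusted p = 0.695 in edgeR). *Slc29a4*, a transporter of monoamines and adenosine, had low levels, at 2.02, 1.67 and 0.324 CPM in F4/80high against 0.351, 0.172 and 0 in F4/80low (log2 fold change 3.06, SE 1.16, adjusted p = 0.598 in edgeR). Its counts were 80, 86 and 3 in F4/80high against 14, 7 and 0 in F4/80low.

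The 3 adenosine receptors that were tested all had lower values in F4/80high, with 1 at an unadjusted p under 0.05 and a median log2 fold change of -0.77. Per length, they summed to 22.3, 10.1 and 16.2 RPKM (CPM per kilobase) in F4/80high and to 33.6, 18.6 and 26.7 RPKM in F4/80low. The sum was lower in F4/80high in each pair, but F4/80high replicate 1 exceeded F4/80low replicate 2.

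*Adora2a* (ENSMUSG00000020178, chromosome 10, 75316877-75334784, plus strand) encodes a high-affinity adenosine receptor, which raises cyclic AMP. It was at 27.8, 7.98 and 28.6 CPM in F4/80high against 25.6, 23.6 and 38.4 CPM in F4/80low. F4/80high replicate 2 alone was below the other 5 libraries, and the remaining libraries overlapped. The log2 fold change was -0.45 (SE 0.41, adjusted p = 0.806 in edgeR). It was -0.10 without F4/80high replicate 2, and leaving out F4/80high replicate 1 gave -1.10.

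*Adora2b* (ENSMUSG00000018500, chromosome 11, 62248984-62266453, plus strand) encodes a low-affinity one, which answers to high adenosine levels. It was at 19.2, 10.9 and 8.22 CPM in F4/80high against 40.4, 13.9 and 20.2 CPM in F4/80low. F4/80high was lower at 0.475, 0.786 and 0.407 times F4/80low in pairs 1, 2 and 3, while F4/80high replicate 1 stood above F4/80low replicate 2. The mean was 12.8 ± 5.71 CPM in F4/80high and 24.8 ± 13.8 in F4/80low (SD, n = 3). A log2 fold change of -0.99 was fitted (SE 0.42, adjusted p = 0.647 in edgeR). It was -0.49 without F4/80low replicate 1, and leaving out F4/80low replicate 2 gave -1.37.

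The sequence upstream of *Adora2b* is shown because it is the member lower in F4/80high with the smallest p. It is the plus strand of chr11:62248734-62248983 (RefSeq, GRCm38.p6), 250 bases of which 69.6% are G or C, up to the base before the first annotated exon. Capitals mark the GC box, GGGCGG on either strand.

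Adora2b: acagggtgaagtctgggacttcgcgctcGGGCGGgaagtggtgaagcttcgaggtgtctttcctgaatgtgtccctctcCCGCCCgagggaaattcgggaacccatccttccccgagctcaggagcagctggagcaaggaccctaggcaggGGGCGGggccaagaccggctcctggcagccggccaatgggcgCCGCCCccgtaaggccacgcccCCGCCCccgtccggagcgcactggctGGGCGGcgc

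The GC box occurred 6 times. At least 1 was held by 32.7% of 32851 RefSeq windows of 250 bases, which were not matched for G and C content. The share of windows with 6 was not counted. The hypoxia response core ACGTG and the AP-1 motif TGANTCA were not found in this window on either strand, nor were the PU.1 core GAGGAAG and the TATA box TATAAA.

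*Adora3*, a further adenosine receptor, was the lowest of the 3, at 3.36, 3.67 and 1.51 CPM in F4/80high against 6.05, 6.59 and 2.28 in F4/80low. It was lower in F4/80high in each pair, with overlap and a log2 fold change of -0.77 (SE 0.46, adjusted p = 0.709 in edgeR). The ratio of *Adora2b* to *Adora2a* per length was 0.946, 1.88 and 0.394 in F4/80high against 2.17, 0.809 and 0.721 in F4/80low, with no common direction over the pairs (exact permutation test, two-sided, p = 0.9). *Adora1* was not analysed here.

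**Figure D3:**
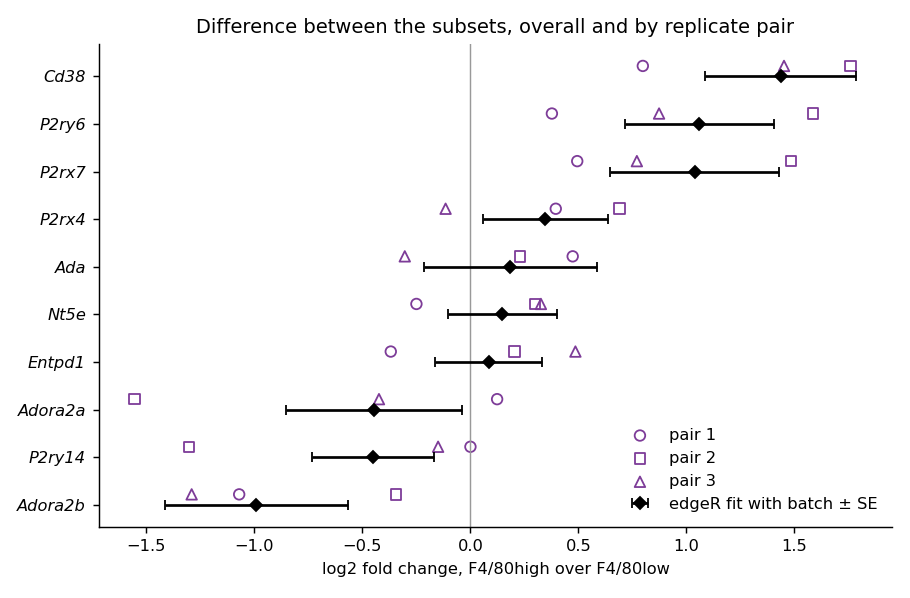
Log2 fold change, F4/80high over F4/80low, of each member in the edgeR fit with batch (black diamonds with SE) and in pairs 1, 2 and 3 (open symbols, from log2 CPM with a prior count of 2). The fitted values run from -0.99 for *Adora2b* to 1.44 for *Cd38*, and the 3 pairs of *Entpd1*, *Nt5e*, *Ada*, *Adora2a* and *P2rx4* lie on both sides of 0.

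The P2X receptors are channels that ATP opens to calcium and sodium. *P2rx7* (ENSMUSG00000029468, chromosome 5, 122643911-122691432) needs high ATP and is known for its part in inflammasome activation. *P2rx4* (ENSMUSG00000029470, chromosome 5, 122707544-122729738) is more sensitive and sits largely in lysosomes. Both lie on the plus strand, 16112 bases apart, and their upstream sequences are shown because neighbors of one family had different values across the pairs. Capitals mark the GC box (GGGCGG) and the AP-1 motif (TGANTCA) on either strand. The windows end at the base before the first annotated exon, at chr5:122643677-122643910 for *P2rx7* and chr5:122707294-122707543 for *P2rx4* (plus strand, RefSeq, GRCm38.p6).

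P2rx7: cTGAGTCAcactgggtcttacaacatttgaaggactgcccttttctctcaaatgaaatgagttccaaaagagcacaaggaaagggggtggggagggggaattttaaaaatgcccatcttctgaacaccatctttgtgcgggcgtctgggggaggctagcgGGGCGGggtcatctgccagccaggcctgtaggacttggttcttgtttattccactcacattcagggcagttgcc

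P2rx4: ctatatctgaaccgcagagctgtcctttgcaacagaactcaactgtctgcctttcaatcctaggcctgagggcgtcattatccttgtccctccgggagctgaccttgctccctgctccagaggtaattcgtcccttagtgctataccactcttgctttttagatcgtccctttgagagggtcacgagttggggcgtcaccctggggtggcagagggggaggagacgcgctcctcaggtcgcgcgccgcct

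The *P2rx7* window, of 234 bases and 51.7% G or C, held 1 GC box and 1 AP-1 motif, which share no base, and 6.75% of all RefSeq windows of 250 bases held the latter. The *P2rx4* window, of 250 bases and 57.2% G or C, held 0 of both. The hypoxia response core (16.6% of all windows), the PU.1 core (10.6%) and the TATA box (12.4%) were in neither.

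*P2rx7* was at 24.5, 74.1 and 141 CPM in F4/80high replicates 1, 2 and 3. In F4/80low it was at 17.3, 26.5 and 82.4 CPM. F4/80high was higher in each pair, at 1.41, 2.80 and 1.71 times, but F4/80low replicate 3 exceeded both F4/80high libraries of batch 1. The means were 79.7 ± 58.2 and 42.1 ± 35.2 CPM (SD, n = 3). For the subsets the log2 fold change was 1.04 (SE 0.39, adjusted p = 0.597 in edgeR). With the replicate block the adjusted p was 0.202 in edgeR and 0.0332 in DESeq2, where the log2 fold change of 0.92 was below the limit of 1. Without F4/80high replicate 2 the log2 fold change was 0.39. Batch 2 exceeded batch 1 by a log2 fold change of 1.71 (adjusted p = 0.00690 in edgeR).

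*P2rx4* was at 99.0, 169.6 and 189 CPM in F4/80high against 75.3, 105 and 204 CPM in F4/80low. Replicate 3 was the highest library of each subset, and the subsets overlapped, with F4/80high higher in pairs 1 and 2 and lower in pair 3. A log2 fold change of 0.35 was fitted (SE 0.29, adjusted p = 0.790 in edgeR), and it was -0.00 without F4/80high replicate 2. *P2rx4* exceeded *P2rx7* per length in every library. The ratio of *P2rx7* to *P2rx4* was 0.291, 0.514 and 0.877 in F4/80high against 0.271, 0.297 and 0.474 in F4/80low. It was higher in F4/80high in each pair, 1.51 times by the geometric means, with overlap (exact permutation test, two-sided, p = 0.3, and 0.45 adjusted over the 6 ratios).

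*P2rx1*, a fast-desensitizing ATP channel of platelets and myeloid cells, had a difference of opposite sign. It was at 27.8, 14.5 and 18.8 CPM in F4/80high against 64.5, 82.7 and 34.3 CPM in F4/80low. All F4/80high libraries lay below all F4/80low libraries, with a log2 fold change of -1.50 (SE 0.33, adjusted p = 0.440 in edgeR), and DESeq2 called it with the batch and with the replicate block.

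Over the P2X family, 4 of 6 tested genes were higher and 2 lower in F4/80high, with 1 and 1 at an unadjusted p under 0.05 and a median log2 fold change of 0.46. Of the 4, *P2rx3* and *P2rx6* had few counts. *P2rx3* had 6, 9 and 15 counts in F4/80high against 2, 0 and 79 in F4/80low. Its mean was lower in F4/80high, at 0.649 against 3.02 CPM. Per length, the family summed to 29.5, 42.3 and 58.2 RPKM in F4/80high and to 38.7, 51.2 and 60.6 RPKM in F4/80low. This sum was lower in F4/80high in each pair, with overlap between the subsets. *P2rx1* gave 36.01, 13.03 and 12.3% of all P2X reads per length in F4/80high against 63.5, 61.6 and 21.6% in F4/80low. *P2rx7* gave 13.9, 29.4 and 40.5% in F4/80high against 7.51, 8.67 and 22.8% in F4/80low. The share of *P2rx1* was smaller, and that of *P2rx7* larger, in F4/80high in each pair. *P2rx4* was the leading channel in all F4/80high libraries, at 47.8, 57.1 and 46.2%, and in F4/80low only in replicate 3, at 27.7, 29.2 and 48.0%. *P2rx5* and *P2rx6* were at 0 in at least 1 library and below 4 CPM in all, with log2 fold changes of -1.57 (SE 1.89) and 2.70 (SE 2.59).

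**Figure D4:**
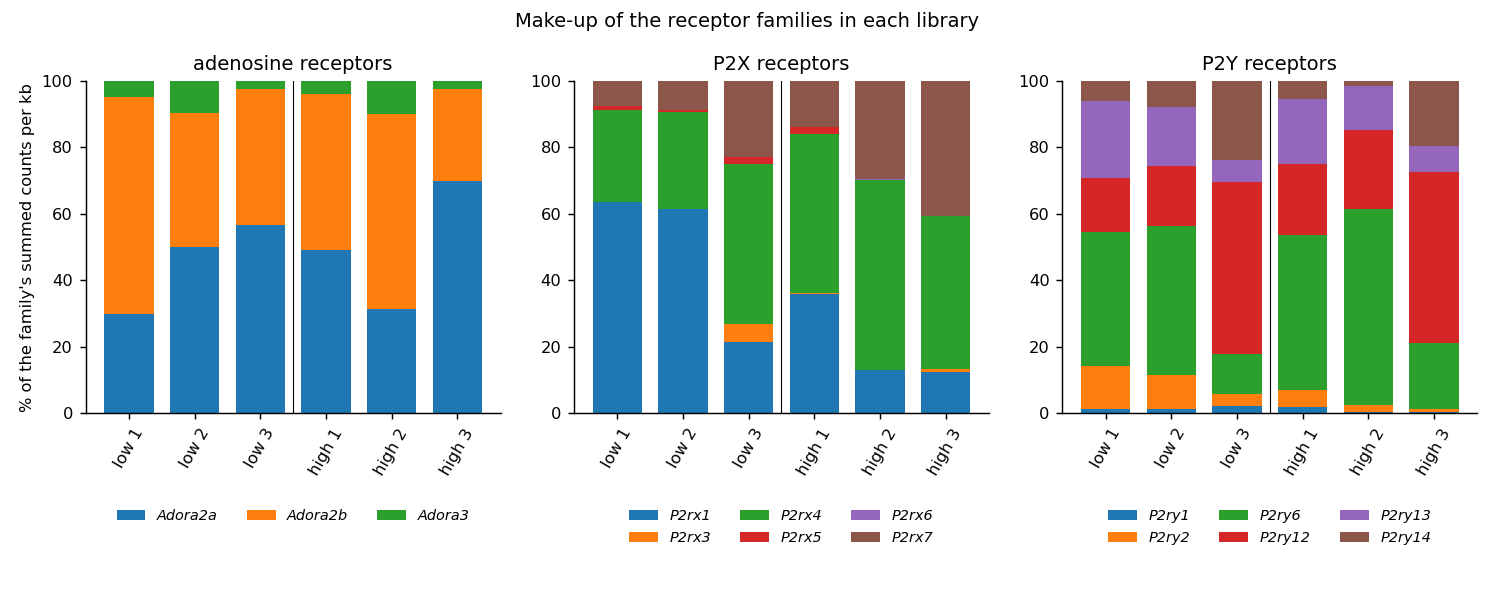
Composition of the adenosine, P2X and P2Y receptor families in each library, as percent of the family's reads per length (stacked bars). *P2rx1* takes 63.5 and 61.6% of P2X in F4/80low replicates 1 and 2 but 36.01 and 13.03% in F4/80high replicates 1 and 2, and *P2ry12* takes 51.3 and 51.8% of P2Y in replicate 3 of both subsets.

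P2Y receptors couple to G proteins. *P2ry6* (ENSMUSG00000048779, chromosome 7, 100937630-100974649, minus strand) answers to UDP and is known for its part in phagocytosis by macrophages and microglia. It had the highest mean level per length of the 10 members at its deposited length of 1938 bases. GENCODE M21 gives it 2887 bases, and this longer length would lower its level. Its CPM was 80.5, 215 and 42.1 in F4/80high against 62.0, 71.6 and 22.9 in F4/80low. F4/80high was higher in each pair, at 1.30, 3.00 and 1.83 times. The subsets overlapped, since replicate 3 of F4/80high was below replicates 1 and 2 of F4/80low, and the means were 112 ± 90.8 and 52.2 ± 25.8 CPM (SD, n = 3).

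The log2 fold change of *P2ry6* was 1.06 (SE 0.35, adjusted p = 0.524 in edgeR). With the replicate block the adjusted p was 0.212 in edgeR and 0.0307 in DESeq2, where the log2 fold change of 0.95 was below the limit of 1. Without F4/80high replicate 2 the log2 fold change was 0.49. Batch 2 was below batch 1 by a log2 fold change of -1.68 (adjusted p = 0.00766 in edgeR).

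*P2ry2*, the receptor for ATP and UTP, lies 21919 bases from *P2ry6*. It was at 14.4, 12.8 and 2.38 CPM in F4/80high against 31.0, 25.5 and 10.2 CPM in F4/80low. It was lower in F4/80high in each pair, though replicates 1 and 2 of F4/80high were above replicate 3 of F4/80low, with a log2 fold change of -1.35 (SE 0.32, adjusted p = 0.440 in edgeR), and DESeq2 called it with the batch and with the replicate block. Per length, *P2ry6* exceeded *P2ry2* by 8.67, 25.9 and 27.4 times in F4/80high and by 3.09, 4.34 and 3.50 times in F4/80low. The ratio did not overlap between subsets and was 5.08 times higher in F4/80high (exact permutation test, two-sided, p = 0.1, the lowest possible, and 0.2 adjusted over the 6 ratios). With labels exchanged within pairs the exact p was 0.25, again the lowest possible. This ratio too was chosen after values had been seen, so the test is a description.

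*P2ry14* (ENSMUSG00000036381, chromosome 3, 59113855-59153618, minus strand) is the receptor for UDP-glucose. The gene lies inside *Med12l* on the other strand, with 0 exonic bases shared, and use of strand in counting is not given in the sources used here. It was at 53.7, 29.0 and 234 CPM in F4/80high against 53.7, 71.7 and 259 CPM in F4/80low. The pair 1 libraries were equal to 3 digits, F4/80high was lower in pairs 2 and 3, and both libraries of replicate 3 stood above all others. Between subsets the log2 fold change was -0.45 (SE 0.28, adjusted p = 0.718 in edgeR), and it was 2.28 (adjusted p = 2.95e-04 in edgeR) for batch 2 over batch 1. Leaving out F4/80high replicate 1 gave -0.69 for the former, and leaving out F4/80high replicate 2 gave -0.22.

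*P2ry12*, an ADP receptor of platelets and microglia, lies 62654 bases from *P2ry14*. It was at 48.6, 113 and 141 CPM in F4/80high against 32.4, 37.7 and 129 CPM in F4/80low, higher in F4/80high in each pair with overlap (log2 fold change 0.85, SE 0.36, adjusted p = 0.639 in edgeR, and 0.29 without F4/80high replicate 2). Its ratio to *P2ry14* per length was 3.93, 16.9 and 2.63 in F4/80high against 2.62, 2.28 and 2.17 in F4/80low. The subsets were separate in this ratio by only 2.63 against 2.62, with a geometric mean 2.38 times higher in F4/80high (exact permutation test, two-sided, p = 0.1, the lowest possible, and 0.2 adjusted over the 6 ratios). With labels exchanged within pairs the exact p was 0.25, and this ratio was also chosen after values had been seen.

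Of 6 tested P2Y genes, 3 were higher and 3 lower in F4/80high, with 2 and 1 at an unadjusted p under 0.05 and a median log2 fold change of -0.03. Per length, the family summed to 89.2, 188 and 108 RPKM in F4/80high and to 79.2, 82.3 and 98.2 RPKM in F4/80low. This sum was higher in F4/80high in each pair, with overlap between the subsets. *P2ry6* gave 46.6, 59.0 and 20.02% of all P2Y reads per length in F4/80high against 40.4, 44.9 and 12.05% in F4/80low, a larger share in F4/80high in each pair. *P2ry2* gave 5.37, 2.28 and 0.732% in F4/80high against 13.05, 10.3 and 3.45% in F4/80low. In replicate 3 of both subsets *P2ry12* in place of *P2ry6* was the leading P2Y gene.

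Granulocytes and monocytes carry *P2rx1* and *P2ry2*, and the markers of these cells were lower in F4/80high. The 8 neutrophil markers, 8 of 8 lower, summed to between 614 and 1741 CPM in F4/80high and between 1299 and 3637 CPM in F4/80low. The 6 eosinophil markers, 6 of 6 lower, summed to between 88.7 and 175 CPM in F4/80high and between 245 and 592 CPM in F4/80low. The 6 monocyte markers, 6 of 6 lower, summed to between 859 and 3917 CPM in F4/80high and between 2389 and 7806 CPM in F4/80low. *Mpo* and *Elane* were at 0 in replicate 3 of both subsets, *Mpo* also in F4/80high replicate 2, and *Epx* in F4/80high replicate 1. The eosinophil sums of the subsets did not overlap, while the neutrophil and monocyte sums overlapped. Dendritic cell markers, 6 of 6 lower, summed to between 73.5 and 262 CPM in F4/80high and between 132 and 475 CPM in F4/80low, with *Clec9a* at 0 in F4/80high replicate 2. Mast cell and basophil markers, 7 of 7 lower, summed to between 5.85 and 96.6 CPM in F4/80high and between 26.0 and 401 CPM in F4/80low, with *Mcpt4*, *Mcpt8*, *Ms4a2* and *Fcer1a* at 0 in F4/80high replicate 2 and *Mcpt8* and *Ms4a2* also in other libraries. Fibroblast markers, 6 of 6 lower and none at 0, summed to between 438 and 1528 CPM in F4/80high and between 1048 and 1891 CPM in F4/80low. Each of these 3 sums was lower in F4/80high in 3 of 3 pairs. The part of all these cells in the values of *P2rx1*, *P2ry2*, *Acpp*, *Ampd3*, *Dpp4*, *Adora2b*, *P2ry14* and *Gja1* was not tested.

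**Figure D5:**
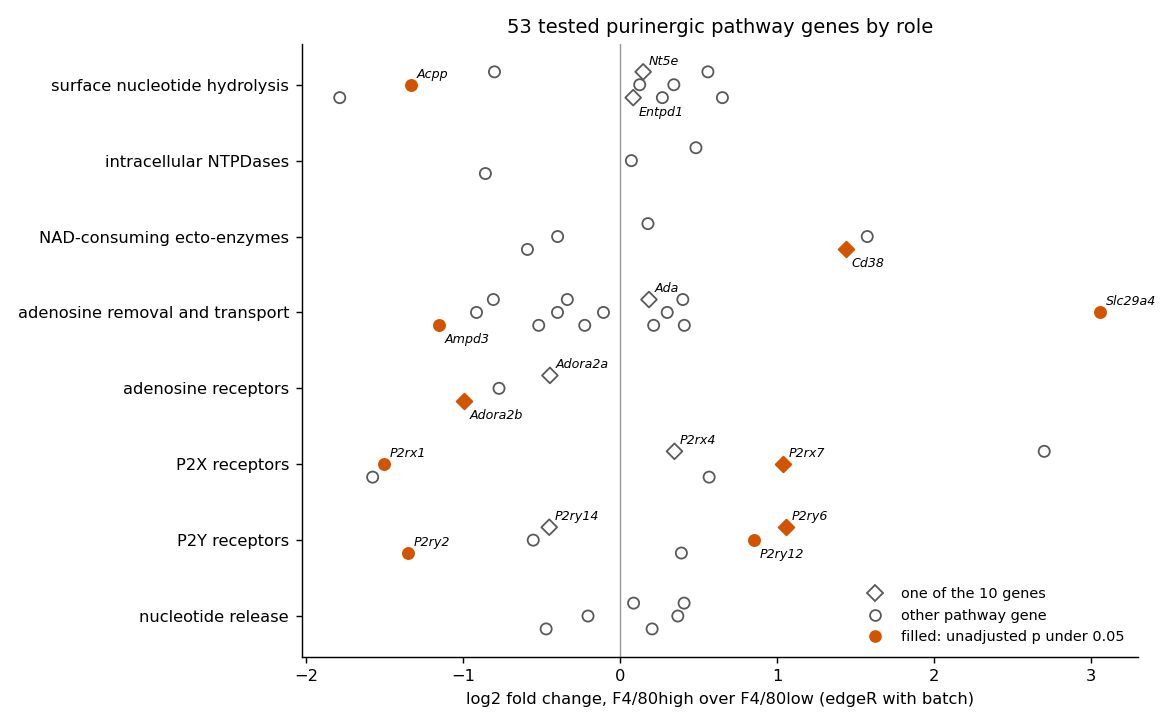
Log2 fold change, F4/80high over F4/80low, of the 53 tested genes of the purinergic pathway, by role (edgeR with batch). Diamonds are the 10 members, circles the other genes, and filled symbols have an unadjusted p under 0.05. All 3 adenosine receptors lie below 0, at a median of -0.77, and the P2X and P2Y families have genes on both sides.

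The levels of the members can be ranked per deposited length, as the mean RPKM over 6 libraries. The order was *P2ry6* at 42.5, *Cd38* at 29.8, *Entpd1* at 25.1, *P2rx4* at 19.97, *P2ry14* at 10.6, *P2rx7* at 10.2, *Adora2b* at 10.2, *Adora2a* at 10.001, *Nt5e* at 5.16 and *Ada* at 3.15. Only *P2rx4* exceeded its next member in 6 of 6 libraries. *Adora2a* exceeded *Nt5e*, and *Nt5e* exceeded *Ada*, in 5 of 6. The other neighbors in this order changed places in at least 2 libraries, so their order is not resolved. The level of *P2ry6* spanned 9.37-fold over the 6 libraries and that of *Nt5e* 2.30-fold, the largest and the smallest range of the members.

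The list of purinergic pathway genes, which includes the members, held 64 genes, of which 57 were in the tables and 53 were tested. Of these, 29 were higher and 24 lower in F4/80high, with 5 and 5 at an unadjusted p under 0.05, and the median log2 fold change was 0.09. Of all 14645 genes tested, 7435 were higher and 7210 lower, with 480 and 633 at an unadjusted p under 0.05. For the 43 pathway genes that are no members, 22 were higher and 21 lower, with 2 and 4 at an unadjusted p under 0.05. DESeq2 called 1.12% of all genes with the batch and 2.68% with the replicate block. Of the pathway genes, DESeq2 with the batch called *Ampd3*, *P2rx1*, *Cd38*, *Acpp* and *P2ry2*. With the replicate block it also called *P2rx5* (adjusted p = 0.0457) and *Dpp4* (adjusted p = 0.0348), where edgeR with the block gave adjusted p = 0.604 and 0.193. *P2rx5* had 58, 0 and 0 counts in F4/80high against 46, 27 and 28 in F4/80low, and in edgeR its log2 fold change was -8.25 without F4/80high replicate 1, while leaving out F4/80high replicate 3 gave -0.32. That of *Dpp4* was -1.55 and -0.54 when F4/80high replicate 1 or 2 was left out, and -0.51 when F4/80low replicate 1 was. Genes listed under nucleotide release gave 6 tested genes, 4 higher and 2 lower, with 0 at an unadjusted p under 0.05 and a median log2 fold change of 0.15. Among these, *Gja1* (connexin 43) had a log2 fold change of -0.47 (SE 0.25) and *Lrrc8a*, of a volume-regulated anion channel, one of 0.41 (SE 0.32). *Lrrc8a* was at 448 and 394 CPM in replicate 3 of F4/80high and F4/80low and below 5 CPM in the other 4 libraries.

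The genes most like *Cd38* and *P2ry6* over the libraries were sought by the Pearson correlation of log2 CPM after the batch means were removed, among 10986 candidates over 6 libraries. The nearest to *Cd38* were *Racgap1*, *Fos* and *Prune2*, and the nearest to *P2ry6* were *Lipo1*, *Arl11* and *Wdr81*, each with r = 0.999. Their log2 fold changes were 0.78, 0.24 and 1.67 for the former and 0.75, 0.40 and 0.36 for the latter, so a like course over the libraries came with unlike sizes. With the batch removed, few free values remain, and these names are a description only.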

How the data were processed

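RNA from sorted F4/80high and F4/80low TAMs was made into poly-A libraries. The authors deposited one table per library with raw read counts per gene, gene length and biotype, with no normalization. The aligner, genome build, counting rule and use of strand are not given in the sources used here. Positions and biotypes were taken by gene ID from GENCODE M21 (GRCm38), and promoters from RefSeq by symbol, with a window for 8 of 10 members. Those of *Adora2a* and *P2ry6* were not analysed here, and that of *Cd38* lies within an annotated exon and is not shown.

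Protein-coding genes with at least 10 counts over 6 libraries were fitted in R 4.3.3 with edgeR 4.0.16 (quasi-likelihood, TMM, terms for batch and subset), with Benjamini-Hochberg adjusted p-values over 14645 genes. DESeq2 1.42.0, normalization, filters, biotypes and left-out libraries were alternatives. Levels are CPM on TMM-scaled library sizes, and RPKM divides these by the deposited length, which differs from M21 for *Nt5e*, *Adora2a* and *P2ry6*. With the longer M21 length, the level of *P2ry6*, its share of the P2Y reads and its ratio to *P2ry2* would be smaller in every library. The smallest count of a member was 11. The study's methods give 3 independent experiments, and same-numbered libraries were taken as pairs. Over 10072 genes the libraries of pairs 1, 2 and 3 deviated from their subset mean with correlations of 0.745, 0.729 and 0.907. These means span both batches, so the batch alone can give such values and they cannot show the matching. Within batch 1 the correlation between same-numbered libraries was 0.242. p-values measure the spread between these libraries.

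Members, pathway and marker lists were chosen with earlier results of these data known. Named pathway genes were, per role, those called in any fit, those with the smallest p in each direction and the leading receptor per length. *P2rx3* was named in addition for its few counts. The fit was tested on simulated data.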

Additional observations from a re-analysis of the deposited data

Results flagged for a closer look

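Genes outside the protein-coding comparison also held reads. *Art2a-ps*, annotated as a polymorphic pseudogene of the *Art2* ADP-ribosyltransferases, held at least 120 counts in each of the 6 libraries. It was at 3.26, 8.24 and 14.7 CPM in F4/80high and 5.47, 4.72 and 13.7 CPM in F4/80low, so the subsets overlapped. How reads were split between it and the related *Art2b* is not given in the sources used here, and the counts of both are uncertain. *Gm8783*, a processed pseudogene within the span of *Entpd1*, held at least 15 counts in each library, above the 3 counts taken as the floor. It was at 0.379, 0.447 and 1.62 CPM in F4/80high and 3.24, 0.516 and 2.62 CPM in F4/80low, a small value beside the 80.9 CPM or more of *Entpd1*.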

How the results depend on the processing

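The 10 members, 53 pathway genes and all tested genes were refitted under each alternative. Calls rose from 0 genes to 148 in DESeq2, 76 in edgeR with the replicate block, 354 in DESeq2 with the replicate block and 57 without F4/80high replicate 1. Members called went from 0 to 1 (*Cd38*) in DESeq2, in DESeq2 with the replicate block and without F4/80high replicate 1, and stayed 0 in edgeR with the replicate block. Pathway genes called went from 0 to 5 in DESeq2, 1 in edgeR with the replicate block, 7 in DESeq2 with the replicate block and 1 without F4/80high replicate 1. Over the fits that leave out a library, the counts ran from 0 to 57 genes, 0 to 1 members and 0 to 1 pathway genes. The cause was not tested.

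The log2 fold change of *Entpd1*, 0.08, was -0.11 without F4/80high replicate 3, -0.02 without F4/80low replicate 2, -0.11 without F4/80low replicate 3 and -0.11 without replicate 3 of both subsets. Over the left-out libraries, *Entpd1* ran from -0.11 to 0.33, *Nt5e* from -0.073 to 0.34 and *P2rx4* from -0.0032 to 0.58, the lowest values of the latter genes being those without F4/80high replicate 2. No other member changed sign under any alternative run. The replicate block changed no call of a member in edgeR. Few counts limit *Ada*, *Adora3*, *Art2b*, *P2rx3*, *P2rx5*, *P2rx6* and *Slc29a4* among the genes named. For the 6 ratios, a test with labels exchanged within pairs (a replicate block, chosen after seeing the data) gave exact p of 0.25 to 1, against 0.1 to 1. With 1 pair in batch 2 the difference between batches in the subset effect was not tested.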
